A study of Homo sapiens with 24 samples.

Results

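The proneural and neurogenic factors examined here are 9 transcription factor genes of nerve cell formation: NEUROG1, NEUROD1, NEUROD2, NEUROD4, NHLH1, NHLH2, INSM1, EBF3 and MYT1. Every probe set that the platform annotation assigns to them was taken, over all 24 arrays, which gave 15 probe sets for 8 of the 9 genes among 54675 probe sets in all. NEUROD1 has no probe set in that annotation and was not analysed here. Of the 15 probe sets, 11 exceeded the median signal of the array on at least 3 arrays, and 7 of the genes were therefore among the 13903 tested. NHLH2 did not pass on either of its probe sets.

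The arrays measured D425, an established human medulloblastoma line, a tumour of the cerebellum. One arm, labelled shOTX2, carries a short hairpin RNA against OTX2 that doxycycline switches on, and the other arm is labelled control. The labels do not say what the control cells carry, nor whether either line is a single clone. Cells of both arms were plated a day ahead of doxycycline and harvested after 0, 8, 16, 24, 48 and 96 h, in 3 independent courses of the shOTX2 arm (18 arrays) and 1 course of the control (6 arrays), so each shOTX2 group has 3 arrays and each control group 1.

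Nerve cells arise when proneural proteins of the basic helix-loop-helix (bHLH) class pair with E proteins, bind E-box sequences in DNA and switch on a cascade of further factors. NEUROG1 stands early in that cascade. The NEUROD and NHLH proteins, related bHLH factors, and the zinc finger proteins INSM1 and MYT1 and the COE family factor EBF3 act later, as cells leave the cycle and differentiate. In the cerebellum NEUROD1 and NHLH1 are known from newborn granule neurons. ID proteins hold E proteins in inactive pairs, Notch signalling acts through HES and HEY repressors, and REST silences neuronal genes in other cells.

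The E-box is written CANNTG, and CAGATG is a form that NEUROG and NEUROD proteins are known to bind. The RefSeq promoter table (GRCh38.p14) held 9 promoters of 8 of these genes, and INSM1 was not among them. The 250 bases before the start site are given here for the NHLH genes, of which NHLH1 rose and NHLH2 stayed dim, and for NEUROD2, which rose, 5′ to 3′ on the gene's strand with every E-box in capitals. NHLH1 lies at chr1:160366821-160367070 on the plus strand, NEUROD2 at chr17:39607921-39608170 on the minus strand, and the NHLH2 promoter with CAGATG at chr1:115841127-115841376 on the minus strand.
NHLH1: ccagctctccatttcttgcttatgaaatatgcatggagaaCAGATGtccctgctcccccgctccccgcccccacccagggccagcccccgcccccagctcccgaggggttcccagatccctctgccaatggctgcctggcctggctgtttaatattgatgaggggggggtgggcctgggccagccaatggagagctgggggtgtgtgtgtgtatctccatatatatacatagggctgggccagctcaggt
NEUROD2: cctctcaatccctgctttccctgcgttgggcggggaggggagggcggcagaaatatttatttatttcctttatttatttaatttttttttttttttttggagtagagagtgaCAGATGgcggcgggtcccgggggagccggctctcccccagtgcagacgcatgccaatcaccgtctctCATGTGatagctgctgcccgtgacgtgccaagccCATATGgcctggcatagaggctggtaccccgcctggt
NHLH2: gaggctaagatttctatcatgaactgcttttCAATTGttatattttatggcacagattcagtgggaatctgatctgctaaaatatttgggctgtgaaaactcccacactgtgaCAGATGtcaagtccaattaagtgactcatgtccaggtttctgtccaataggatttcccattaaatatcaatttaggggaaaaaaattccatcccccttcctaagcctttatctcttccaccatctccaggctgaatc
Each of these 3 windows holds 1 CAGATG, at 210 bases before the start in NHLH1, 138 in NEUROD2 and 137 in NHLH2. Searched on both strands, CAGATG was in 3 of the 9 member promoters and in 12.2% of 35114 promoters of the same length, and any E-box in 5 of 9 and in 61.8%. TAATCC, the core that OTX proteins are known to recognise, was in 0 of 9 and in 5.62% of all. The 3 windows were chosen because they hold CAGATG: the other NHLH2 promoter and that of NEUROD4 hold none, and a match is a description, not a site.

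The values are MAS5 signals, on a linear scale with each array scaled to a common mean. The median signal of an array lay between 16.3 and 20.6. Changes were tested on log2(signal + 16) with limma over all 13903 genes, and a gene is called when its adjusted p (Benjamini-Hochberg over those genes) is under 0.05. The pseudocount of 16 makes a change in a dim gene look smaller than it is. Deviations of arrays of the same course went together, so limma's adjusted p with the course as a block is given where it changes a call. The targeted gene, OTX2, read 4659 ± 217 (SD, n = 3) at 0 h and 4188 ± 302 at 96 h on its brighter probe set in the arrays labelled shOTX2 (log2 -0.15, limma adjusted p = 0.172, 0.033 with the block). On the other it read 3027 ± 155 and 3295 ± 275, so a fall of OTX2 mRNA was not shown on both. Where the hairpin binds relative to these probes is not given in the labels, and directions below are those of arrays as labelled. The ratio of the 3′ to the 5′ actin probes, a sign of RNA or labelling quality, was 1.31 to 1.51 in course 1 and 1.30 to 1.55 in the control, but 1.82 to 2.36 in course 2 and 1.87 to 2.02 in course 3.

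In the arrays labelled shOTX2, NHLH1 and INSM1 went from signals under the array median to between 443.2 and 646.1 at 96 h, and NEUROD2 rose to a lower level. NEUROD4, EBF3 and MYT1 stayed near the median of the arrays, NEUROG1 was measurable from the start and was higher at 96 h than at 0 h in each course, and NHLH2 was dim on every array. NHLH1 was called from 16 h on, and INSM1, on 1 of its 2 kept probe sets, and NEUROD2 from 48 h on. No member was called lower at any time after induction. In bulk RNA, more cells with a transcript and more transcript per cell cannot be told apart.

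**Figure D1:**
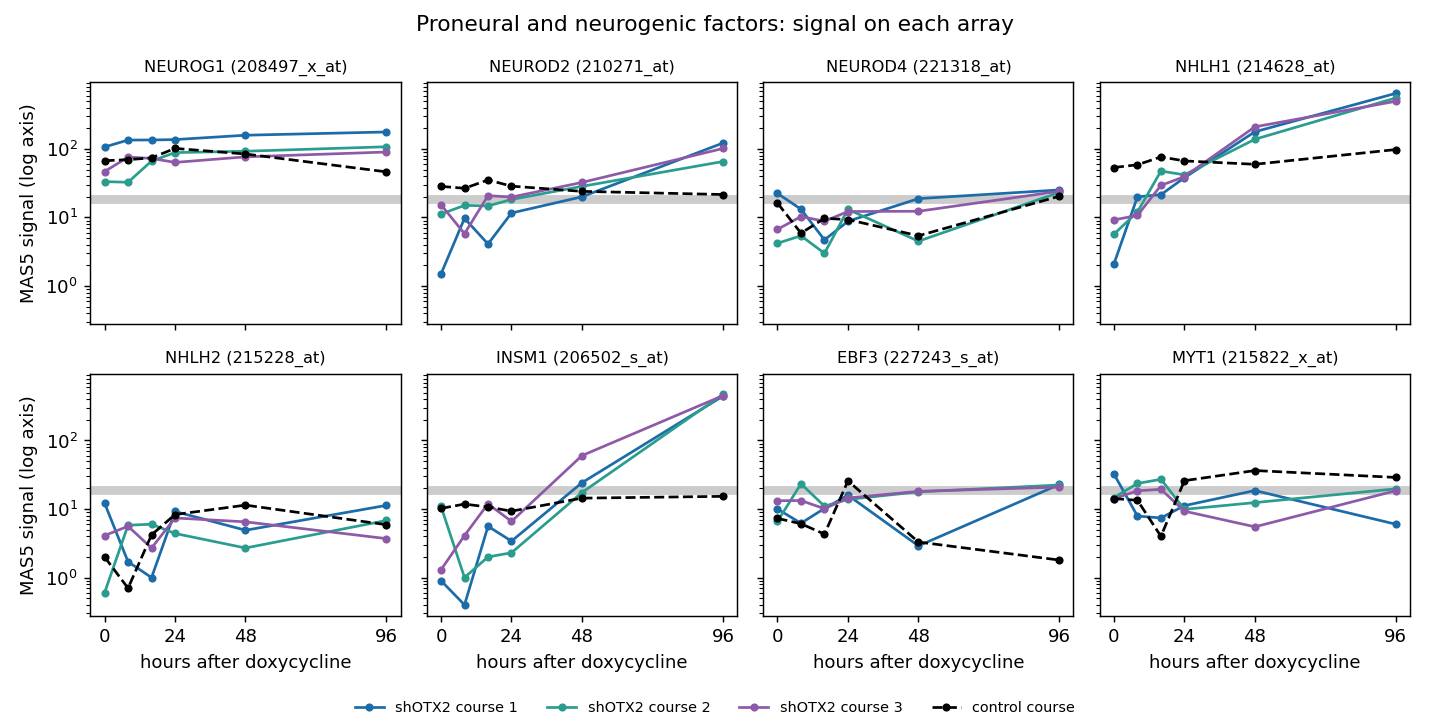
MAS5 signal (log axis) against hours after doxycycline for 1 probe set of each of 8 factors, with a line per shOTX2 course and a dashed line for the control course; the grey band spans the array medians, 16.3 to 20.6. NHLH1 and INSM1 end between 443.2 and 646.1 at 96 h in the 3 shOTX2 courses while the control reads 97.8 and 15.3, and NHLH2 lies under the band on every array.

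Counted over the 7 tested members, 0 were called at 8 h (0% of all genes). By limma, 1 member and 462 of all 13903 genes had an unadjusted p under 0.05 at 8 h. Called were 1 member at 16 h (1.02% of all genes), 1 at 24 h (6.15%), 3 at 48 h (33.3%) and 4 at 96 h (43.6%). With the course as a block more genes were called throughout the table from 16 h on, and the members' counts were 0 at 8 h (0% of all genes), 2 at 24 h (15.3%), 4 at 48 h (44.6%) and 6 at 96 h (53.8%). The 16 h count was 0 without course 2, without course 3, with a pseudocount of 64 and when the other groups were left out of the model. Of all 13903 genes, 0, 39, 136 and 0 were called at 16 h in these 4 settings. INSM1 passed the filter only through its 48 and 96 h shOTX2 arrays. NEUROD4 and EBF3 were over the median on 5 arrays each, 3 of them shOTX2 arrays at 96 h, and would not have passed without those. For these 3 genes passing and differing are not separate facts, and their p-values at those times are a description. Against a background of 43.6% the count of members at 96 h is read only as a description. Between neighbouring times, 2 members were called from 24 to 48 h (17.8% of all genes) and 3 from 48 to 96 h (11.8%), all higher.

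NHLH1, a bHLH factor of newborn neurons, has 1 probe set (214628_at). In the shOTX2 arm it read 2.1, 5.7 and 9.2 at 0 h in courses 1 to 3, then 20.0, 12 and 10.7 at 8 h, 21.5, 47.5 and 29.3 at 16 h, and 38.0, 41.8 and 39.4 at 24 h. It reached 177.5, 138.1 and 209.8 at 48 h and 646.1, 553.6 and 494.4 at 96 h. All 3 arrays at 16 h lay above all 3 at 0 h, and the 48 and 96 h arrays lay above those of every earlier time. The log2 change was 1.15 at 16 h (SE 0.20, limma adjusted p = 0.00793), 1.38 at 24 h (adjusted p = 0.000444), 3.14 at 48 h and 4.75 at 96 h (SE 0.20, adjusted p = 1.77e-11). The 16 h call was lost without course 2 (0.95, limma adjusted p = 0.464), without course 3 (1.30, adjusted p = 0.101), with a pseudocount of 64 and with only the groups compared. Without course 2 and with only the groups compared, 0 of all genes were called at 16 h. The NHLH1 calls at 24, 48 and 96 h held in all 13 alternatives, though with 1 probe set the alternatives on the choice of probe set could not change the estimate. Each later step was called too: 1.76 from 24 to 48 h (limma adjusted p = 1.32e-05) and 1.61 from 48 to 96 h (adjusted p = 8.12e-05).

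The control course carried more NHLH1 from the outset, with 53.5, 58.6, 76.4, 66.7, 59.6 and 97.8 at the 6 times. At 0 h the shOTX2 arm was lower than the control array by a log2 difference of -1.69 (SE 0.29, limma adjusted p = 0.00897), where 1 of 7 members and 0.453% of all genes were called. That call was lost without course 2 (adjusted p = 0.108) and without course 3 (adjusted p = 0.0852), with a pseudocount of 64 and with only the groups compared, and the difference rests on 1 control array at 0 h. Up to 24 h every shOTX2 array read below the control array of its time, and from 48 h on every one read above it. The difference between the arms was not tested at 16 or 24 h.

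INSM1 encodes a zinc finger repressor that newly differentiating neurons and neuroendocrine cells express. On its brighter probe set (206502_s_at) the shOTX2 arrays read 0.9, 10.9 and 1.3 at 0 h and stayed between 0.4 and 11.9 up to 24 h. They read 24.2, 17.4 and 60.1 at 48 h and 443.2, 470.4 and 450.4 at 96 h. The 96 h values differed by little between courses, with a mean of 455 ± 14.1 (SD, n = 3), while the 48 h values spread more, 33.9 ± 22.9. The log2 change was 0.0096 at 24 h (limma adjusted p = 0.995), 1.23 at 48 h (SE 0.26, adjusted p = 0.00126) and 4.56 at 96 h (SE 0.26, adjusted p = 4.25e-10). Without course 3 the 48 h value was 0.78 (limma adjusted p = 0.0499). The step from 48 to 96 h was 3.33 (adjusted p = 3.95e-06). All 5 arrays on which this probe set exceeded the median were shOTX2 arrays at 48 or 96 h. Its p-values for those times are therefore given as a description. The second probe set (231558_at) read 3.7, 1.5 and 3.7 at 0 h and 40.6, 29.0 and 53.0 at 96 h, a log2 change of 1.56 that is given as a description, since this probe set passed the filter only through its 3 arrays at 96 h. It was not called at 48 h (0.43, limma over probe sets, adjusted p = 0.237), and none of its arrays before 96 h exceeded 18.4. The control course stayed between 9.3 and 15.3 on the first and between 3.0 and 14.8 on the second.

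NEUROD2, a bHLH factor of differentiating neurons, rose on both probe sets. On 210271_at the shOTX2 arrays read 1.5, 11.2 and 15.3 at 0 h and 11.6, 18.3 and 19.8 at 24 h. They then read 20.0, 28.4 and 32.4 at 48 h and 121.6, 65.4 and 101.3 at 96 h. On 1552953_a_at they read 13.1, 2.8 and 1.8 at 0 h, 20.8, 33.2 and 33.6 at 48 h and 68.0, 71.0 and 65.0 at 96 h. That second probe set passed the filter only with its shOTX2 arrays at 48 and 96 h, so its rise is given as a description. At 48 and 96 h no array overlapped the 0 h group on either probe set. The log2 change on the first was 0.79 at 48 h (SE 0.26, limma adjusted p = 0.0264) and 2.15 at 96 h (SE 0.26, adjusted p = 2.69e-06). The 48 h call was lost without course 2 (adjusted p = 0.13), without course 3 (adjusted p = 0.0914) and with either other scaling (adjusted p = 0.0522 with median centring), and the step from 48 to 96 h (1.36, adjusted p = 0.00244) was lost without course 2 (adjusted p = 0.0671) and with a pseudocount of 1. The control course lay between 21.6 and 35.2 on the first probe set, above every shOTX2 array up to 24 h, and between 1.9 and 29.3 on the second.

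How much of the rise was in place by 48 h depended on the probe set. As a share of the signal gained from 0 to 96 h in the same course, NHLH1 had gained 27.2%, 24.2% and 41.3% by 48 h in courses 1 to 3. INSM1 had gained 5.27%, 1.41% and 13.1% on 206502_s_at, but -4.34%, 61.5% and 13.8% on the dimmer 231558_at. NEUROD2 had gained 15.4%, 31.7% and 19.9% on 210271_at, and 14.0%, 44.6% and 50.3% on 1552953_a_at. The probe sets therefore give no settled order of the 3 genes, and these shares are a description with no test.

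NEUROG1, the upstream proneural factor, was over the array median on all 24 arrays. Its single probe set (208497_x_at) is of a kind whose probes can also match other transcripts, so the level may not be that of NEUROG1 alone. In course 1 it went from 106.5 at 0 h to 136.7 at 24 h and 176.5 at 96 h, in course 2 from 33.3 to 88.3 and 107.4, and in course 3 from 46.6 to 63.5 and 90.0. The courses started from different levels, and the 96 h group overlapped the 0 h group although every course was higher at 96 h. The log2 change at 96 h was 0.91 (SE 0.41, 95% interval 0.057 to 1.77) and was not called (limma adjusted p = 0.0801), but blocking on the course (adjusted p = 0.00033) or leaving out course 1 gave a call (1.04 and adjusted p = 0.00338 for the latter). With the block it was also called at 24 h (0.58, adjusted p = 0.0413) and 48 h (0.74, adjusted p = 0.00305). By 48 h it had gained 73.9%, 79.8% and 68.9% of the signal gained by 96 h. The control course rose from 67.2 to 101.6 at 24 h and ended at 46.2.

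NEUROD4, EBF3 and MYT1 remained close to the array medians. NEUROD4, a bHLH factor of the retina and early neurons, read 22.4, 4.2 and 6.7 at 0 h and 25.2, 23.2 and 24.1 at 96 h (log2 0.63, SE 0.24, limma adjusted p = 0.0402). NEUROD4 passed the filter only with those 3 arrays at 96 h, so the p-value is given as a description. The 3 values at 96 h were the highest of all 24 arrays, but by little: course 1 at 0 h and the control at 96 h read 22.4 and 20.4. This call was lost in 6 of 13 alternatives, among them without course 2 (0.46, adjusted p = 0.24), without course 3 (0.53, adjusted p = 0.281) and with median centring (adjusted p = 0.0949).

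EBF3, a COE factor, read 10.0, 6.6 and 13.2 at 0 h and 22.8, 22.4 and 20.9 at 96 h on 227243_s_at, groups that did not overlap. The log2 change of 0.56 (95% interval 0.079 to 1.04) was not called (limma adjusted p = 0.0562), though it was once the course was blocked (adjusted p = 0.0469). The probe set passed the filter only with its 3 shOTX2 arrays at 96 h, so these p-values are given as a description. The highest array on this probe set was the control at 24 h, with 25.7. On 1559796_at the 0 and 96 h groups overlapped (4.0 to 14.5 and 1.7 to 16.7), and 227242_s_at was under the median on every array, between 0.3 and 11.6.

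MYT1, a zinc finger factor of early neurons and oligodendrocyte precursors, had probe sets that went different ways. The brightest, 215822_x_at, again open to other transcripts, read 32.3, 14.7 and 14.2 at 0 h and 6.0, 19.7 and 18.5 at 96 h (log2 -0.24, 95% interval -0.82 to 0.34, limma adjusted p = 0.523). On 1556269_at the arrays went from 2.0, 8.5 and 1.9 to 18.7, 19.4 and 20.9 (0.84, limma over probe sets, adjusted p = 0.0354), but single arrays in between reached 26.3 and the control at 0 h read 21.3. On 210341_at they went from 1.7, 1.8 and 5.6 to 16.7, 14.1 and 12.4, under the median throughout. The direction of MYT1 was therefore not settled, and it also turned without course 1 (0.20, adjusted p = 0.532). NHLH2, the close relative of NHLH1, lay between 0.8 and 8.6 on 214497_s_at and between 0.6 and 12.2 on 215228_at, with no array of either arm over the median.

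The control course was compared next, to see whether time in culture moved the same genes. From early (0 and 8 h) to late (48 and 96 h) in the control, 0 of 7 members were called (0% of all genes, and by limma 0 members at an unadjusted p under 0.05), and 0 with the block (0.604%). With 1 array in each control group and almost no gene called, this could hardly show a move of the members. From 0 to 96 h the control changed by 0.71 for NHLH1, 0.26 for INSM1 and -0.24 for NEUROD2. The change from 0 to 96 h was larger in the shOTX2 arm than in the control by 4.31 for INSM1 (SE 0.52, limma adjusted p = 5.74e-05), 4.04 for NHLH1 (SE 0.40, adjusted p = 1.06e-05) and 2.39 for NEUROD2 (SE 0.53, adjusted p = 0.00494). That makes 3 of 7 members, against 13.7% of all genes, and 4 with the block, NEUROG1 added, against 26%. INSM1 is among them only because its shOTX2 arrays at 48 and 96 h passed the filter, so its p-values here are a description. On the other probe sets of INSM1 and NEUROD2 the difference was 1.94 and 1.78. Both of these passed the filter only with late shOTX2 arrays, so the 2 values are a description. The same 3 were called for the change from early to late (22.5% of all genes), though on its other probe set NEUROD2 was not (0.95, limma over probe sets, adjusted p = 0.0537). There the block added NEUROG1 (0.78, adjusted p = 0.0269), giving 4 against 35% of all genes, and leaving out course 1 added NEUROG1 (0.91, adjusted p = 0.0389) and MYT1 (-0.89, adjusted p = 0.0327), giving 5 against 29.2%. For NEUROG1 the difference at 96 h was 1.33 (95% interval -0.38 to 3.04, limma adjusted p = 0.337, 0.012 with the block and 0.0302 without course 1), and for NEUROD4 0.45, EBF3 0.95 and MYT1 -0.81 it was not called. Each control group is 1 array, assumed to vary like the shOTX2 groups. Course 1, whose actin ratio lay in the control's range, differed from the control by 4.51 for INSM1, 4.48 for NHLH1 and 3.21 for NEUROD2. Courses 2 and 3 differed from it by 3.92 and 4.50, by 4.00 and 3.63, and by 1.82 and 2.15. The part of the actin ratio in these differences was not tested.

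**Figure D2:**
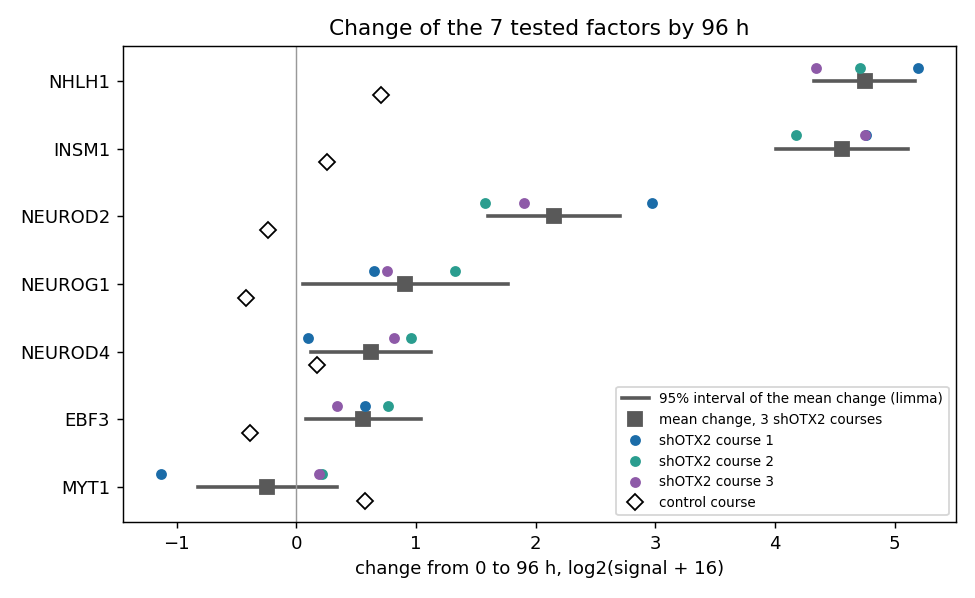
Change from 0 to 96 h on the log2(signal + 16) scale for the 7 tested factors: circles are single shOTX2 courses, squares their mean with its 95% interval from limma, and open diamonds the control course. For NHLH1, INSM1 and NEUROD2 all 3 courses lie to the right of the control (courses 1 and 3 of INSM1 overlap at 4.76 and 4.75). They do so for NEUROG1 and EBF3 too, and for MYT1 all 3 lie to its left. For NEUROD4 course 1 lies at 0.10, beside the control at 0.18.

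Genes that work beside these factors were taken from lists written with earlier results of these data known, and are given as counts at 96 h against 0 h in the shOTX2 arm. Over all 13903 genes 21.1% were called higher and 22.5% lower, with a median of -1e-04; centring each array on its median turned this into 2034 higher and 4093 lower and a median of -0.16. Of 13 other bHLH factors 11 are on the annotated array and 5 passed the filter. Of these 5, 3 rose and 0 fell, with a median of 1.47. OLIG1 and OLIG2, known from oligodendrocyte and motor neuron precursors, rose from 5.90 ± 2.00 (SD, n = 3) to 92.1 ± 31.2 and from 60.5 ± 35.3 to 213 ± 29.5, and ATOH8 from 316 ± 35.9 to 906 ± 100.3. NEUROG2, NEUROD6 and BHLHE22 did not pass the filter, and ATOH1 read 7.60 ± 6.26 and 10.1 ± 0.611.

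Of the relatives of EBF3 and INSM1, EBF1 and INSM2 rose and EBF4 was not called (log2 0.16, limma adjusted p = 0.689). EBF1 rose from 53.5 ± 29.6 (SD, n = 3) at 0 h to 481 at 48 h and 867 ± 196 at 96 h (log2 3.75, limma adjusted p = 1.32e-07), while the control read 36.9 and 61.0. INSM2 rose from 35.1 ± 7.64 to 99.1 at 48 h and 143 ± 13.4 at 96 h (1.64, adjusted p = 0.000189), but its difference from the control's change was not called (1.16, adjusted p = 0.234). The transcriptional repressor gene ZBTB18 rose from 987 ± 154 to 3384 ± 37.2. In this list of 9 COE and zinc finger relatives 4 were tested, of which 3 rose and 0 fell (median 1.71), and EBF2, MYT1L and ST18 did not pass the filter.

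All 3 E protein genes, whose products pair with proneural factors, were called higher. TCF4 rose from 431 ± 28.6 (SD, n = 3) to 1886 ± 86.6 (log2 2.09, limma adjusted p = 4.74e-09), and TCF12 and TCF3 by 0.86 and 0.71, the last 2 with kept probe sets that differed in sign. Of the 3, TCF4 alone was also called against the control's change (1.81, adjusted p = 0.00063). The ID genes went the other way: ID1 fell from 3178 ± 665 to 1209 ± 335 and ID3 from 601 ± 117 to 186 ± 123, while ID2 and ID4 were not called (list median -0.74). In the control ID1 went from 2732 to 923.1 and ID3 from 495.1 to 133.7, and the differences between the arms were 0.15 and 0.01 (limma adjusted p = 0.887 and 0.996).

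Among Notch repressors HES1 rose from 18.5 ± 2.88 (SD, n = 3) to 54.4 ± 7.0 (log2 1.03), HEY1 and HEYL were not called, and the other 3 of 6 were not tested (median 0.14, and -0.051 with median centring). Of 9 genes of the REST repressor complex 5 rose and 1 fell (median 0.31), which with median centring became 3 and 3. The corepressor RCOR2 rose from 35.8 ± 10.0 to 265 ± 123 and RCOR3 from 249 ± 15.3 to 568 ± 22.0. REST itself went from 157 ± 51.0 to 267 ± 5.92 (0.76, limma adjusted p = 0.0041), with 180.9 and 244 in the control and a difference between the arms of 0.35 (adjusted p = 0.65), and HDAC1 fell by 0.43 on the log2 scale. HDAC1 went from 1226.4 to 991.5 in the control, and its difference between the arms was -0.13 and not called. Kept probe sets of REST and RCOR3 differed in sign.

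Of 27 known targets and downstream genes 25 were tested, of which 19 rose and 1 fell (median 1.91, and 18 and 1 with median centring). Against the control's change 16 were called higher and 0 lower, where 873 of all 13903 genes were called higher and 1033 lower. DCX, a microtubule protein of migrating neurons, rose by 5.50, STMN2, a stathmin of growing axons, by 4.99, and MFNG, a glycosyltransferase that acts on Notch, by 4.58, from 9.67 ± 3.45 (SD, n = 3) to 617 ± 205. RND2, a small GTPase of migrating neurons, fell from 84.5 ± 35.4 to 46.6 ± 12.5 (limma adjusted p = 0.0334). TUBB3, ELAVL4, EOMES, TBR1 and CBFA2T3 were not called.

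**Figure D3:**
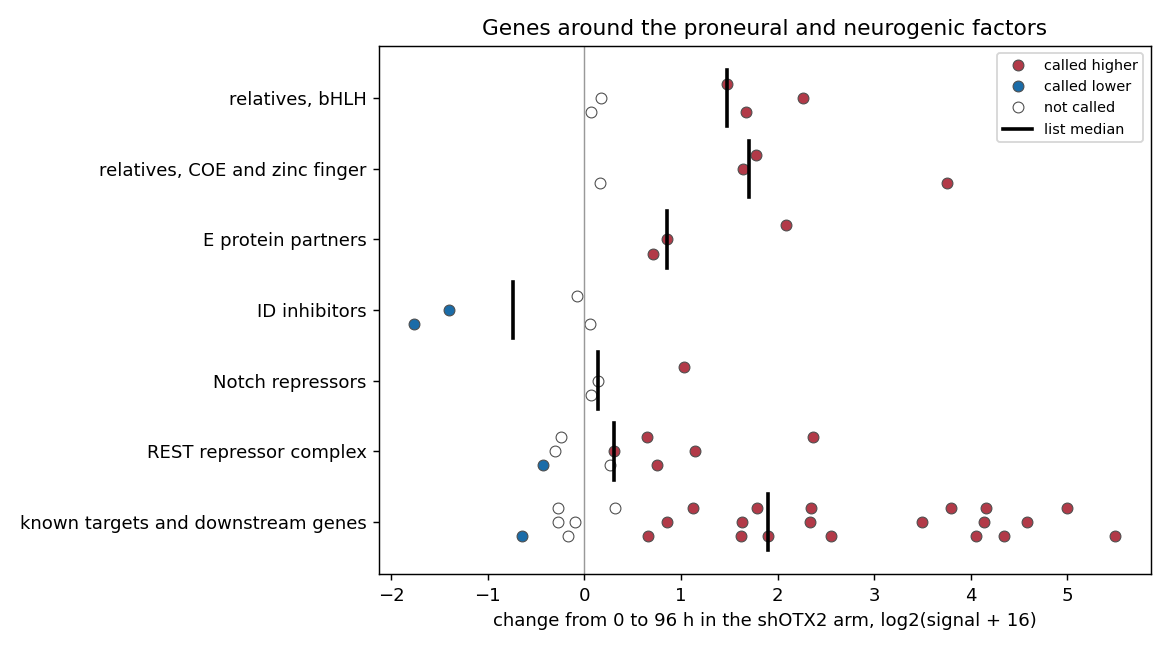
Change from 0 to 96 h in the shOTX2 arm, on the log2(signal + 16) scale, of the tested genes of 7 lists; each circle is a gene, red where called higher, blue where called lower and white where not called, and the black bar is the list median. The medians run from -0.74 for the ID genes to 1.91 for the known targets and downstream genes.

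Over the 24 arrays the genes most like each member were read off as Pearson's r on log2(signal + 16), across arrays that share courses, as a description. INSM1 was most like SOX11 (r = 0.98), MGP (0.98) and STMN2 (0.98), and NHLH1 most like KCNC1, H2BC21 and FOXN3 (0.96 each). NEUROD2 was most like KRCC1 (0.91), NHLH1 (0.90) and RPAIN (0.90). NEUROG1 followed DUSP5, SPSB1 and MPRIP (0.88 each). NEUROD4 had ZDHHC14 (0.83), FSCN1 (0.78) and SNPH (0.74), EBF3 had LYPD8 (0.75), CRYGS (0.71) and PRMT9 (0.68), and MYT1 had MAPT-AS1 (0.71), ENTPD1-AS1 (0.65) and KICS2 (0.64). Among the members, INSM1, NHLH1 and NEUROD2 had r from 0.88 to 0.90 with each other, and NEUROG1 at most 0.43 with any of the other 6. Course levels were not removed from these r, and NEUROG1 started at 106.5, 33.3 and 46.6 in courses 1 to 3.

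Markers of other cell types were read beside these rises. The medulloblastoma genes OTX2, MYC and CRX were over the median on all 24 arrays, and their sum went from 9439 to 10275 at 0 h to 7091 to 7873 at 96 h, with 10892 to 12842 in the control. MYC fell from 5022 ± 389 (SD, n = 3) to 3064 ± 178 (log2 -0.71, limma adjusted p = 4.97e-05; against the control's change -0.93, adjusted p = 0.00951), and CRX rose from 143 ± 26.5 to 356 ± 34.5 (1.24, adjusted p = 6.29e-05), with no call against the control's change (0.18, adjusted p = 0.841). Of 8 glial markers with a named probe set GFAP, AQP4, S100B and SOX10 were under the median on every array, and the sum of the list went from 284.2 to 329.5 at 0 h to 128 to 174.2 at 96 h. That fall was SLC1A3 (244 ± 29.8 to 70.2 ± 25.0), the 1 glial gene called among 4 tested, while MBP read 13.0 at 0 h and 26.7 at 96 h and MOG 8.50 and 15.7. ALDH1L1 was over the median on 23 arrays and read 28.6 at 0 h and 25.4 at 96 h. Of 7 fibroblast markers 6 were tested and 4 rose. The sum of the 7 went from 82.1 to 130.6 at 0 h to 577.7 to 1145 at 96 h. COL1A1 was the largest part of it at 96 h (542 on average). COL3A1, PDGFRB and COL1A2 were called higher too, by 2.04, 1.51 and 0.83 on the log2 scale. DCN, THY1 and LUM did not exceed 30.5 on any array. Over the 0 and 96 h shOTX2 arrays and the control course the sum of 5 immune markers stayed between 24.9 and 72.2. PTPRC and CD14 were under the median throughout, while ITGAM was over it on 9 arrays, CD3E on 7 and AIF1 on 1. The sum of 5 endothelial markers stayed between 31.9 and 60.8, with PECAM1 over the median on 21 arrays and the others on 0. The part of these shifts in the rise of the neurogenic factors was not tested.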

How the data were processed

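The deposited values are MAS5 signal intensity from Affymetrix U133 Plus 2.0 arrays; the submitters' processing notes name GCOS and MAS5, without versions. On the scale the authors deposited, intensity has a 2% trimmed mean of 100.011 to 100.014 on every array. That scaling removes a shift of this mean, such as one common to all genes, but the array medians still ran from 16.3 to 20.6. Groups, times and courses came from the labels. The platform annotation supplied gene names, with symbols updated by Entrez ID through the RefSeq table. Control probe sets were left out, and 33803 probe sets over the array median on at least 3 arrays were kept. Of several kept probe sets of a gene, that of highest mean was tested. limma 3.58.1 in R 4.3.3 was fitted to 12 group means of 24 arrays with eBayes and a trend, on log2(signal + 16), with 12 residual degrees of freedom (10 with the course as a block), and was tested on simulated data. A fit over all kept probe sets served for second probe sets. Deviations from group means correlated in all 45 same-course pairs (0.157 to 0.556), so the course pairs arrays, which the labels call independent courses.

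The members, lists and tests were chosen with earlier results of these data known. Named were all members, OTX2, up to 3 called rises and 3 called falls a list and the 3 genes most like each member; markers of other cell types, and relatives named as not called or not passing, were picked for naming after their values were seen. Arrays have no read depth, and their number limits the precision.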

Additional observations from a re-analysis of the deposited data

Results flagged for a closer look

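The change over time differed between the arms for 3 members. From 0 to 96 h the shOTX2 arm exceeded the control by a log2 difference of 4.31 for INSM1, 4.04 for NHLH1 and 2.39 for NEUROD2 (limma adjusted p = 5.74e-05, 1.06e-05 and 0.00494). From early to late times the differences were 2.79, 3.34 and 1.60 (limma adjusted p = 3.95e-05, 6.04e-07 and 0.00434). On its other probe set the early to late difference of NEUROD2 was 0.95 and not called (limma over probe sets, adjusted p = 0.0537). All 3 courses lay on the same side of the control course for each of these genes. The same held for NEUROG1, EBF3 and MYT1, which were not among those called, so it does not set the 3 genes apart. Its share over all genes was not counted. INSM1 passed the filter only through shOTX2 arrays at 48 and 96 h, so its p-values are given as a description. The differences from 0 to 96 h include the gap between the arms at 0 h: -1.69 for NHLH1, -0.85 for NEUROD2 and -0.40 for INSM1. That gap rests on 1 control array. The control is 1 course, and the labels do not say in what else the arms differ.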

How the results depend on the processing

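Over 11 comparisons and up to 13 alternatives the count of called members stayed within 1.5 times in 131 of 141 cases. At 16 h it was 0, in place of 1, with a pseudocount of 64 and with only the groups compared, and 0 to 1 with a course left out (of all genes, 0 were called with only the groups compared and 0 without course 2). At 0 h between the arms it was likewise 0 in place of 1 with a pseudocount of 64 and with only the groups compared, and 0 to 1 with a course left out. At 24 h the replicate block gave 2 in place of 1, adding NEUROG1, as it did at 48 h and in both differences between the arms. For the change from early to late between the arms, leaving out a course gave 3 to 5. The block changed no other count by over 1.5 times and could not be fitted for the arms at 0 h; a fit on the groups compared alone was not run for the control's own change, which leaves no residual degrees of freedom. Of 415 single values, 374 kept direction and side of the threshold, 20 lost the call, 14 gained it and 7 turned. All 7 were MYT1: 0.30 with the mean of probe sets, 0.84 on the probe set with the smallest p and -0.47 to 0.20 with a course left out (0.20 without course 1) at 96 h, and with the mean of probe sets and the probe set of smallest p 0.44 and 1.69 for the difference between the arms from 0 to 96 h and 0.077 and 1.08 from early to late. At 96 h the value ran over the alternatives from 3.17 to 6.56 for NHLH1, from 2.93 to 6.93 for INSM1 and from 1.12 to 3.57 for NEUROD2, lowest with a pseudocount of 64 and highest with 1. The cause of lost calls was not tested. Signals under the array median limit NEUROD4, EBF3, MYT1 and NHLH2.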
